A study of Bactrocera dorsalis with 16 samples.

Results

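The genes described here are those whose product names belong to the machinery of oxidative phosphorylation, measured in the ovary and fat body of females of Bactrocera dorsalis, the oriental fruit fly. They were chosen by name, with no use of their levels: NADH dehydrogenase [ubiquinone] or NADH-ubiquinone for complex I, succinate dehydrogenase for complex II, cytochrome b-c1 for complex III, cytochrome c oxidase for complex IV and ATP synthase for complex V. This took 57 of the 13759 genes in the table, of which 17 belong to complex I, 6 to complex II, 4 to complex III, 14 to complex IV and 16 to complex V. By their names 5 are assembly factors, proteins that help to build a complex without remaining in it, and the other 52 are counted as subunits. The COX20 homologs counted so in complex IV are not named as subunits and are also known as assembly helpers. The names miss some proteins of the chain, among them cytochrome c1 of complex III, which is given below with the electron carriers.

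Ovary and fat body of female flies were each sampled at days 1, 5, 9 and 13 after eclosion, the emergence of the adult, with 2 libraries of total RNA for each tissue and age and 16 in all. All flies came from a laboratory colony fed on yeast extract and sugar, and the labels name no other treatment. Whether the libraries of a group came from separate flies or pools is not stated, so p-values measure only the spread between these libraries. The fat body stores fat, sugar and protein and secretes yolk proteins, which growing eggs import.

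Oxidative phosphorylation takes place at the inner mitochondrial membrane. Complexes I and II pass electrons from NADH and succinate to ubiquinone, complex III passes them on to cytochrome c, and complex IV passes them to oxygen. Complexes I, III and IV pump protons as they do so, and complex V, the ATP synthase, lets the protons back and makes ATP. In insects the ovary supplies the egg with its mitochondria, and flight muscle is a tissue known for very dense ones.

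Values are FPKM, fragments scaled by transcript length and library size, which are per length and so can be set beside each other between genes. Sums of FPKM over all genes ran from 290383 to 324109 in the ovary libraries and from 348750 to 405928 in those of the fat body. Between 7425 and 9054 genes reached 1 FPKM. Read totals are not known; judged by the spacing of low values, depth lay between 0.858 and 1.11 relative to ovary day 1 replicate 1. Tests used log2 of FPKM plus 1 for the 10213 genes whose mean reached 1 FPKM in some group of the 8, which kept 52 of the 57 members. A difference is given as log2 with its standard error (SE), and a gene is called higher or lower where limma's adjusted p over all genes tested was under 0.05. The 5 members below that level were flavoprotein 1 of complex I (86999, at most 1.24 FPKM in a library), a gene for the 49 kDa subunit of complex I (MSTRG.8636, at most 0.262), ATP synthase subunit C3 (MSTRG.10955, at most 0.474), subunit g (MSTRG.6624, at most 0.333) and a gene for subunit beta (MSTRG.8, at most 0.237).

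Tissue markers followed the labels in part. The summed level of vasa, nanos and oskar, 3 germline genes, ran from 377.3 to 765.5 FPKM in the ovary and from 10.2 to 29.0 in the fat body. The summed fat body markers, among them the vitellogenins, which are yolk proteins, went against the labels at day 1, with 1031 to 1863 FPKM in the ovary and 565.4 to 589.4 in the fat body. Gene by gene, 2 of 13 tested were called higher in the ovary at that age and 1 lower, beside 47.6% and 15.4% of all genes. Their median log2 difference was -0.04. The sums were alike at day 5, with 3104 to 3462 and 3075 to 3490 FPKM. At day 9 they were 16620 to 19450 FPKM in the ovary and 22150 to 27870 in the fat body, and at day 13 they were 7850 to 10310 and 39110 to 48550. The 41 muscle marker genes were present in both tissues. Their sum in the ovary was 3771 to 5216 FPKM at day 1, 6810 to 7237 at day 5, 1024 to 1603 at day 9 and 781.0 to 900.7 at day 13. In the fat body it was 6659 to 7208 at day 1, 18480 to 18620 at day 5, 14640 to 17500 at day 9 and 7151 to 8275 at day 13. Gut markers, trypsins and peritrophins, summed to 121.5 to 380.9 FPKM in the ovary and 451.4 to 3046 in the fat body, and hemocyte markers to 52.7 to 174.2 and 133.8 to 237.0. In all of what follows, fewer cells of a type and less RNA per cell cannot be told apart in bulk tissue.

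Transcripts of the complexes were abundant in both organs. ATP synthase subunit alpha (MSTRG.8705), which with subunit beta forms the catalytic head, was the most abundant member by its mean over the 16 libraries, 565.0 FPKM. The lipid-binding protein (MSTRG.10954), the subunit that forms the rotating ring in the membrane, had a mean of 495.7 FPKM. Next came a gene for subunit beta (MSTRG.7) at 377.7 FPKM and cytochrome c oxidase subunit 4 (MSTRG.10888) at 324.2 FPKM. Among the members, which leave out cytochrome c1, the most abundant subunit of complex III was the Rieske protein, which carries its iron-sulfur centre (MSTRG.1237, 165.0 FPKM). That of complex I was beta subcomplex subunit 5 (MSTRG.6697, 107.1 FPKM) and that of complex II an iron-sulfur subunit (MSTRG.9530, 61.8 FPKM).

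Summed over the subunits with a single product name that passed the filter, complex V stood highest in every group. Its 12 genes summed to 3422 ± 322 FPKM (mean ± SD, n = 2 as in all group values) in the fat body at day 1, 3178 ± 268 at day 5, 2614 ± 38.9 at day 9 and 1915 ± 9.9 at day 13. In the ovary the same sum was 2292 ± 320, 2472 ± 264, 2242 ± 165 and 2301 ± 178 FPKM at those ages. The fat body libraries were above the ovary libraries until day 9 and below them at day 13. Much of that last gap lay in subunit O (MSTRG.5802, given below), whose log2 difference at day 13 was 2.23. The 12 subunits had a median difference of 0.09 at that age, with 6 above 0 and 6 below. The 10 genes of complex IV summed to 1689 ± 339, 1372 ± 128, 1288 ± 90.5 and 932.7 ± 20.6 FPKM in the fat body and to 1007 ± 195, 994.8 ± 47.0, 820.8 ± 22.9 and 775.5 ± 69.8 in the ovary. The 12 genes of complex I summed to 954.8 ± 37.6, 805.9 ± 47.5, 794.6 ± 1.7 and 644.0 ± 1.63 FPKM in the fat body and to 761.5 ± 96.7, 759.3 ± 6.51, 647.1 ± 11.8 and 638.3 ± 14.8 in the ovary. For both complexes the tissues were closest at day 13. The 4 genes of complex III went from 573.9 ± 151 to 318.5 ± 21.2 FPKM between days 1 and 13 in the fat body and from 402.8 ± 53.7 to 280.8 ± 27.6 in the ovary. The 5 genes of complex II went from 371.9 ± 54.9 to 131.7 ± 4.74 FPKM in the fat body and from 172.4 ± 16.6 to 152.5 ± 41.0 in the ovary. These sums were not scaled to the library totals, which were larger in every fat body library than in any ovary library. How far the order of the tissues depends on those totals was not tested. The sums are descriptions and were not tested.

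**Figure D1:**
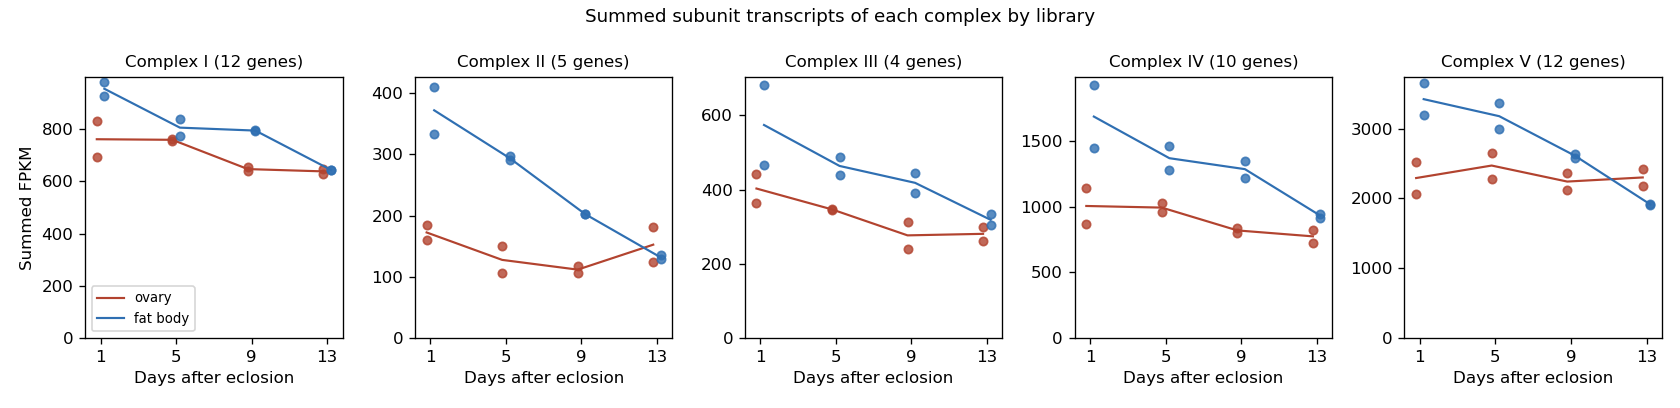
Summed FPKM of the subunits of each complex by library, against days after eclosion, for ovary (red) and fat body (blue); points are libraries and lines join the group means. The fat body sums of complex V go from 3422 at day 1 to 1915 at day 13, and the ovary sums stay between 2242 and 2472.

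The comparison of the tissues over the 4 ages gave different counts for subunits and for assembly factors. Of 47 subunits tested, 25 were lower and 10 higher in the ovary, with a median log2 difference of -0.28. The 10 include both COX20 homologs, which are not named as subunits, and a locus (MSTRG.10865) that also carries another product. Of 5 assembly factors, 4 were higher and 0 lower, with a median of 1.16. Taking all 52 members, 14 were higher and 25 lower, beside 57.4% of all genes tested called higher and 24.9% called lower. The median was -0.25 for the members and 0.58 for all genes, so that the members stood 0.83 below the middle of the transcriptome. Leaving out 4 loci that carry several products gave 12 higher and 24 lower of 48.

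The size of this difference depends on how the tissues are scaled to each other. After median-of-ratios scaling, which put the median of all genes at -0.03, 7 members were higher and 37 lower with a median of -1.07. After quantile normalization 15 were higher and 15 lower with a median of -0.02, beside 0.21 for all genes. For the marker lists as deposited, the shares of all genes to set beside the counts are 24.9% lower and 57.4% higher. Muscle markers moved in the same direction as the subunits, with 26 of 32 tested lower in the ovary, 3 higher and a median of -1.98. Gut markers had 13 of 23 lower and 3 higher with a median of -0.84, and hemocyte markers 6 of 8 lower and 1 higher with -0.82. Fat body markers had 7 of 13 lower and 0 higher with -0.40. The part of these cell types in the result was not tested.

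In complex I, 5 of 14 subunits tested were lower in the ovary and 0 higher, beside 24.9% and 57.4% of all genes. The median was -0.06. After median-of-ratios scaling 12 were lower and 0 higher, with a median of -0.89. The alpha subcomplex subunit 9 (MSTRG.1005), an accessory subunit, measured 96.1 and 99.9 FPKM in the fat body at day 1, 90.3 and 100.4 at day 5, 92.1 and 88.1 at day 9 and 72.3 and 67.5 at day 13. In the ovary it measured 53.8 and 56.5, 63.0 and 62.7, 43.8 and 46.7, and 38.8 and 39.7 FPKM. The lowest fat body library was above the highest ovary library, and the difference was -0.80 ± 0.05 (SE; adjusted p 4.43e-08). The 49 kDa subunit (MSTRG.1513), part of the core that binds ubiquinone, was lower by -0.47 ± 0.11 and subunit C2 (MSTRG.8330) by -0.25 ± 0.08. The beta subcomplex subunit 5 (MSTRG.6697) was lower by -0.38 ± 0.07, with overlapping libraries. The calls of these last 3 genes were lost under quantile normalization, with values of -0.29, -0.08 and -0.10. The 75 kDa subunit (MSTRG.7538), which carries iron-sulfur clusters, had a difference of 0.02 ± 0.09 and was not called.

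In complex III, 3 of 4 subunits were lower in the ovary and 0 higher, beside 24.9% and 57.4% of all genes. The median was -0.36. After median-of-ratios scaling all 4 were lower, with a median of -1.21. Subunit 8 (MSTRG.1840), a small accessory subunit, had a mean of 151.9 ± 46.2 FPKM over the 8 fat body libraries and 97.8 ± 12.9 over the 8 ovary libraries, which overlapped. Its difference was -0.59 ± 0.11 (adjusted p 0.000468). For subunit 2, a core protein, 2 genes share the product name. MSTRG.9044 was lower in the ovary by -0.39 ± 0.07 and MSTRG.9045, with a mean of 10.2 FPKM, differed by -0.04 ± 0.22 and was not called. The Rieske protein (MSTRG.1237) had a difference of -0.34 ± 0.14 (adjusted p 0.0474). Its call was absent in 14 of the 16 fits that left out 1 library, with values from -0.45 to -0.23, and under quantile normalization the difference was 0.11.

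In complex IV, 6 of 11 subunits tested were lower in the ovary and 4 higher, beside 24.9% and 57.4% of all genes. The median was -0.34. After median-of-ratios scaling 8 were lower and 2 higher, with a median of -1.09. The 6 lower ones as deposited were the abundant structural subunits 4, 5A, 5B, 6C and 6b-2 and NDUFA4. Subunit 4 (MSTRG.10888), which stabilises the catalytic core and takes part in its regulation by ATP, measured 498.9 and 394.0 FPKM in the fat body at day 1, 400.3 and 445.3 at day 5, 382.7 and 391.1 at day 9 and 288.9 and 281.1 at day 13. In the ovary it measured 320.5 and 254.5, 322.0 and 310.1, 250.4 and 210.4, and 229.6 and 207.3 FPKM. At each age both fat body libraries were above both ovary libraries, and the difference was -0.55 ± 0.08 (adjusted p 5.59e-05), but 0.08 under quantile normalization. NDUFA4 (MSTRG.170), once taken for a complex I subunit, differed by -0.79 ± 0.10 and subunit 5A (MSTRG.5859) by -0.61 ± 0.07, both lower under each scaling tried, with the call of subunit 5A lost under quantile normalization. The other gene named NDUFA4 (MSTRG.171, mean 1.28 FPKM) was not called.

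The 4 higher genes counted as subunits of complex IV were scarce transcripts. They included both COX20 homologs, MSTRG.7023 at 0.56 ± 0.07 and MSTRG.7024 at 0.30 ± 0.11, whose differences were -0.19 and -0.32 after median-of-ratios scaling and -0.27 and -0.24 under quantile normalization. The call of MSTRG.7024 was absent in 8 of the 16 fits that left out 1 library, with values from 0.22 to 0.37. The largest difference of the complex, 2.01, belongs to a locus (MSTRG.10865) that carries both subunit 5B and TRM6, a transfer RNA methyltransferase subunit, so its level cannot be assigned to either. The main gene for subunit 5B (MSTRG.10867, mean 172.6 FPKM) was lower in the ovary by -0.41, and 0.07 under quantile normalization.

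In complex V all 12 subunits tested were called, beside 24.9% of all genes called lower and 57.4% called higher. Of the 12, 8 were lower and 4 higher in the ovary, with a median of -0.34. Under quantile normalization this turned to 3 lower and 8 higher with a median of 0.26, and after median-of-ratios scaling it was 9 lower and 2 higher. Subunit alpha (MSTRG.8705) had a mean of 643.7 ± 147.0 FPKM over the 8 fat body libraries and 486.4 ± 61.9 over the 8 ovary libraries, a difference of -0.38 ± 0.08 as deposited and 0.23 under quantile normalization. The lipid-binding protein (MSTRG.10954) differed by -0.32 ± 0.08, and by 0.30 under quantile normalization. Subunit b (MSTRG.6152), part of the stalk that holds the head still, was lower by -0.63 ± 0.10 (adjusted p 0.000188).

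Genes for subunit beta differed in tissue preference in the values as deposited. MSTRG.7 had means of 321.3 ± 58.1 FPKM in the ovary and 434.0 ± 106.0 in the fat body, a difference of -0.41 ± 0.07 (adjusted p 0.000216) that became 0.24 under quantile normalization. MSTRG.82, with the same product name, had means of 217.4 ± 15.8 and 176.9 ± 31.3 FPKM, a difference of 0.31 ± 0.07 (adjusted p 0.00173) that became -0.53 after median-of-ratios scaling. The direction of each gene thus depended on the scaling, and under either of these scalings both genes lay on the same side of 0. Both products are listed as partial. Their sequences were not compared, and whether reads were shared between these genes was not tested. A further beta-like gene (188758) was scarce, at 1.59 ± 0.76 FPKM in the ovary and 0.309 ± 0.174 in the fat body, and higher in the ovary by 0.95 ± 0.11 with libraries that did not overlap.

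**Figure D2:**
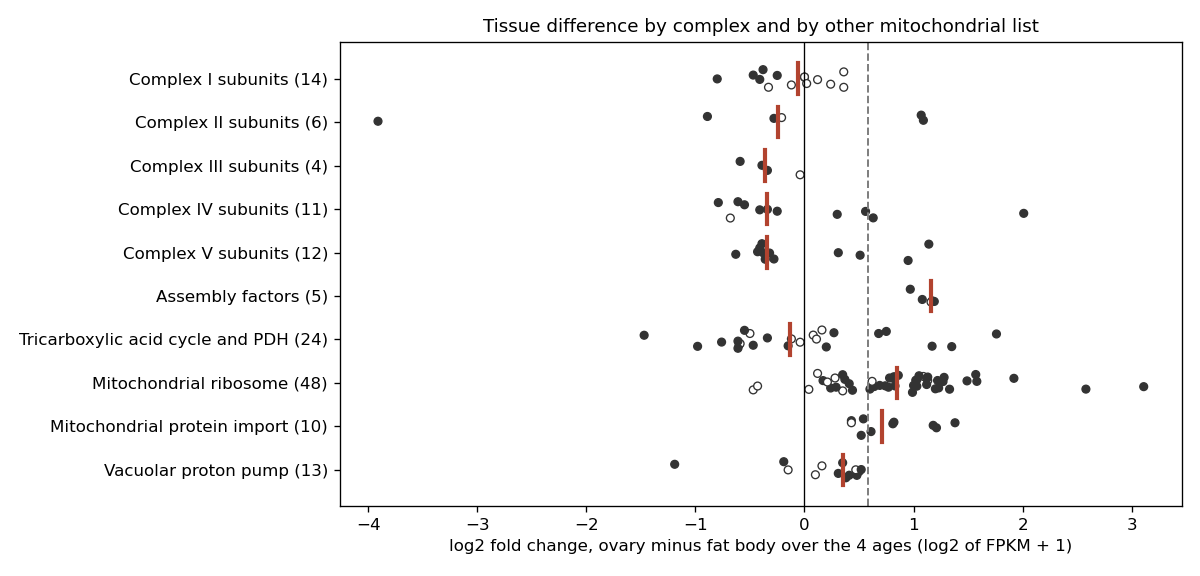
Log2 difference between ovary and fat body over the 4 ages for each tested subunit by complex, the assembly factors and 4 other lists; each point is a gene (filled where called, open where not), red bars are medians, the dashed line is the median of all genes at 0.58, and the number of genes is in brackets. Medians of the 5 complexes lie between -0.36 and -0.06, that of complex V turning to 0.26 under quantile normalization, and the assembly factors lie at 1.16. After median-of-ratios scaling the medians lie between -1.21 and -0.89 for the complexes and at 0.35 for the assembly factors.

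Complex II, which oxidises succinate and is also an enzyme of the tricarboxylic acid cycle, held the largest difference of any member. Its iron-sulfur subunit passes electrons from the flavoprotein to ubiquinone and is encoded here by 2 genes. MSTRG.7621 measured 172.0 and 143.1 FPKM in the fat body at day 1, 143.2 and 126.1 at day 5, 24.2 and 27.9 at day 9 and 10.98 and 7.00 at day 13. In the ovary it measured 6.65 and 5.92, 5.22 and 3.21, 0.771 and 0.454, and 0.624 and 1.06 FPKM. Every fat body library was above every ovary library, and both tissues were lower at the later ages than at the earlier ones. The difference over the 4 ages was -3.91 ± 0.12 (adjusted p 2.83e-10), and the call held under every alternative tried.

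The other gene for the iron-sulfur subunit, MSTRG.9530, changed less with age, with a ratio of day 13 to day 1 of 1.8 in the ovary and 0.7 in the fat body. It measured 78.9 and 65.7 FPKM in the fat body at day 1, 60.1 and 69.9 at day 5, 69.7 and 69.5 at day 9 and 50.7 and 50.5 at day 13. In the ovary it measured 55.2 and 48.2, 52.6 and 37.6, 43.1 and 50.9, and 130.3 and 55.5 FPKM, the last pair being far apart. Its difference of -0.21 ± 0.16 was not called (adjusted p 0.243), and without ovary day 13 replicate 1 it was -0.36 (adjusted p 0.00541) and without replicate 2 it was -0.06 (adjusted p 0.596). In the fat body at days 1 and 5 MSTRG.7621 was thus the more abundant of these genes, and at days 9 and 13 MSTRG.9530 was.

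The flavoprotein subunit, which binds succinate, stood higher in the ovary at 2 neighbouring identifiers. MSTRG.7874 had a mean of 50.5 ± 8.58 FPKM over the ovary libraries and 23.9 ± 5.44 over the fat body libraries, which did not overlap, and differed by 1.07 ± 0.11 (adjusted p 4.22e-06), or 0.24 with no call after median-of-ratios scaling. This locus also carries hu-li tai shao, an adducin known for its part in Drosophila egg chambers, so its level cannot be assigned to the flavoprotein alone. The flavoprotein-like MSTRG.7875 measured 5.96 and 6.05 FPKM in the ovary at day 1, 1.40 and 1.01 at day 5, 0.330 and 0.269 at day 9 and 1.77 and 0.556 at day 13. In the fat body it lay between 0.0201 and 0.521 FPKM in all 8 libraries. The ovary libraries of days 1, 5 and 13 were above all of these, and those of day 9 were not.

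The membrane anchors of complex II were lower in the ovary. The cytochrome b small subunit (MSTRG.6390) differed by -0.28 ± 0.09 (adjusted p 0.0106). The cytochrome b560 subunit (MSTRG.9208) measured 1.999 and 20.5 FPKM in the ovary at day 13 and 24.2 and 25.0 in the fat body, so that a single ovary library stood apart. Its difference over the ages was -0.89 (adjusted p 0.0291), and -0.53 without ovary day 13 replicate 1 (adjusted p 0.00166). The call was lost in 7 of the other fits that left out 1 library, with values from -0.89 to -0.83.

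**Figure D3:**
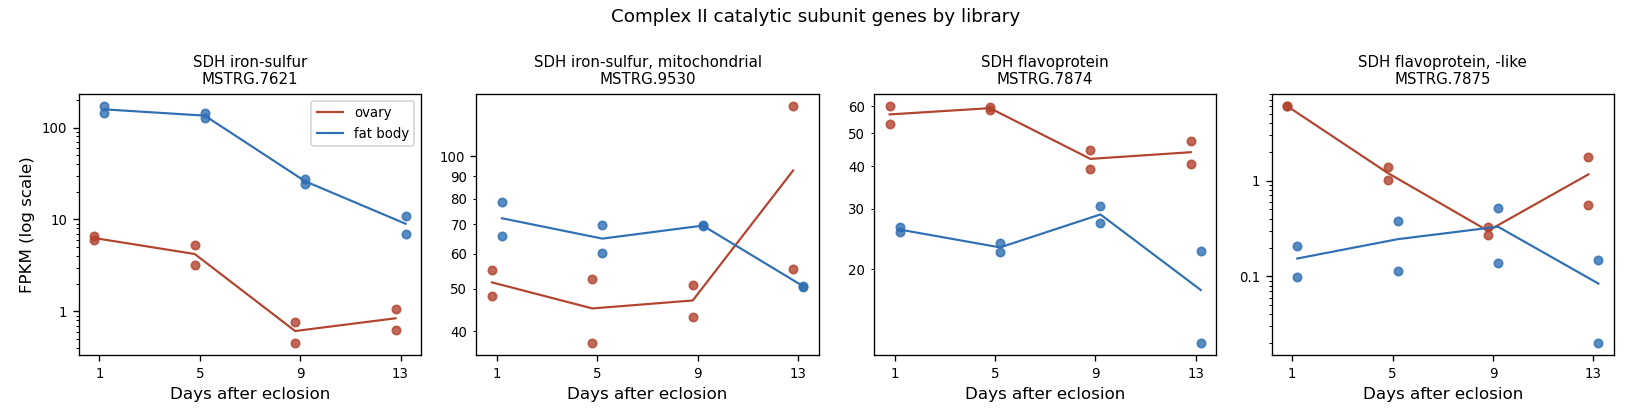
FPKM on a log scale of the genes for the iron-sulfur and flavoprotein subunits of succinate dehydrogenase (SDH) by library, against days after eclosion, for ovary (red) and fat body (blue); points are libraries and lines join the group means. In the fat body MSTRG.7621 drops from 172.0 to 7.00 FPKM, and MSTRG.9530 stays between 50.5 and 78.9 in that tissue.

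The assembly factors were scarcer than most subunits, and 4 of 5 were called higher in the ovary over the 4 ages, beside 57.4% of all genes. At day 1, 2 were higher and 1 lower. At day 5, 0 were called, with a median of 0.56 beside 0.64 for all genes. After median-of-ratios scaling 2 were higher and 0 lower over the 4 ages, with a median of 0.35. NADH dehydrogenase assembly factor 5 (MSTRG.7863), which acts on complex I, had means of 6.29 ± 1.64 FPKM in the ovary and 2.11 ± 0.351 in the fat body and differed by 1.19 ± 0.15. COX15 (MSTRG.7504), which makes the heme of complex IV, measured 22.3 to 27.0 FPKM in the ovary libraries and 3.57 to 14.1 in those of the fat body, with no overlap, and differed by 1.08 ± 0.17. The F1 complex assembly factor 2 (MSTRG.3816) differed by 0.97 ± 0.16. All 3 remained above 0 under the scalings, but after median-of-ratios scaling the calls of COX15 and of the F1 factor were lost, and under quantile normalization that of the F1 factor. COX16 (MSTRG.6284) was not called (1.16 ± 0.57, adjusted p 0.0816). Its libraries were uneven in both tissues, with 20.8 and 5.89 FPKM at day 1 and 6.05 and 21.3 at day 5 in the ovary, and 0.513 and 5.18 at day 1 and 0.0718 and 15.1 at day 13 in the fat body. With 1 library left out its values ran from 0.67 to 1.65, and it was called without replicate 2 of the fat body at day 1 or day 13.

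Cytochrome c oxidase assembly factor 7 (MSTRG.10649), a mitochondrial protein needed for complex IV, had the strongest rise with age of any member in the ovary. It measured 32.4 and 20.6 FPKM there at day 1, 42.2 and 42.1 at day 5, 91.3 and 112.8 at day 9 and 164.0 and 156.8 at day 13. Its fat body values were 42.9 and 35.1, 31.4 and 28.9, 23.4 and 25.5, and 24.2 and 21.1 FPKM. The ovary libraries lay below those of the fat body at day 1 and above them from day 5 on. The ratio of day 13 to day 1 was 6.05 in the ovary and 0.581 in the fat body.

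In the steps between ages, this factor rose in the ovary by 0.68 ± 0.19 from day 1 to day 5 and by 1.25 ± 0.19 from day 5 to day 9 (adjusted p 0.0299 and 0.000587). The difference of 0.66 ± 0.19 from day 9 to day 13 was not called (adjusted p 0.0949). No step in the fat body was called, with values of -0.35, -0.29 and -0.11. The tissues differed in the step from day 5 to day 9 by 1.54 ± 0.28 (adjusted p 0.00262), a call that held under every alternative tried. In the step from day 1 to day 5 the difference of 1.04 ± 0.28 (adjusted p 0.0465) was lost in 14 of the 16 fits that left out 1 library, with values from 0.72 to 1.35. The ovary's own rise in that step was lost without day 1 replicate 2 or either day 5 library, with values from 0.37 to 1.00. Between the tissues the difference was -0.57 ± 0.19 at day 1, 0.47 ± 0.19 at day 5 (not called), 2.01 ± 0.19 at day 9 and 2.77 ± 0.19 at day 13. The call at day 1 was lost without ovary day 1 replicate 2 or fat body day 1 replicate 1 (values from -0.88 to -0.25) and in the fit to only the groups compared.

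Among ATP synthase subunits, subunit O (MSTRG.5802), which joins the head to the outer stalk, was high in the ovary at day 13. It measured 146.4 and 121.9 FPKM in the ovary at day 1, 131.2 and 116.3 at day 5, 293.9 and 85.6 at day 9 and 469.1 and 417.9 at day 13. Fat body libraries measured 203.9 and 157.2, 121.3 and 147.7, 121.7 and 130.0, and 89.2 and 98.1 FPKM. The ovary libraries of day 9 stood on either side of the fat body ones. At day 13 the difference between the tissues was 2.23 ± 0.42 (adjusted p 0.000724), and it held under every alternative tried. The step from day 9 to day 13 in the ovary, 1.47 ± 0.42, was not called (adjusted p 0.085), and was 2.36 without day 9 replicate 1 (adjusted p 0.000543) and 0.59 without day 9 replicate 2. Over the 4 ages the difference of 0.51 ± 0.21 (adjusted p 0.0448) was lost in 14 of the 16 fits that left out 1 library, with values from 0.29 to 0.73, and was -0.34 after median-of-ratios scaling.

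Subunit f (MSTRG.3472), a small protein of the membrane part, was higher in the ovary at every age. It measured 43.4 and 48.0 FPKM in the ovary at day 1, 30.9 and 30.0 at day 5, 43.8 and 47.3 at day 9 and 52.0 and 50.4 at day 13. Its fat body values were 25.3 and 23.2, 18.2 and 20.6, 21.8 and 19.9, and 11.3 and 13.8 FPKM. The tissues did not overlap, and the difference over the ages was 1.14 ± 0.06 (adjusted p 1.94e-08). At day 5 it was 0.63 ± 0.12, and -0.24 after median-of-ratios scaling. The gene fell in the ovary by 0.57 from day 1 to day 5, a call lost without day 5 replicate 2 (values from -0.64 to -0.50), and rose by 0.56 ± 0.12 from day 5 to day 9. In the fat body it fell by 0.70 from day 9 to day 13 (adjusted p 0.00911), lost without day 9 replicate 1 or day 13 replicate 1 (values from -0.83 to -0.56). The difference between the tissues in that step was 0.86 ± 0.18 (adjusted p 0.0228), lost in 5 of the 16 fits that left out 1 library (values from 0.73 to 1.00).

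**Figure D4:**
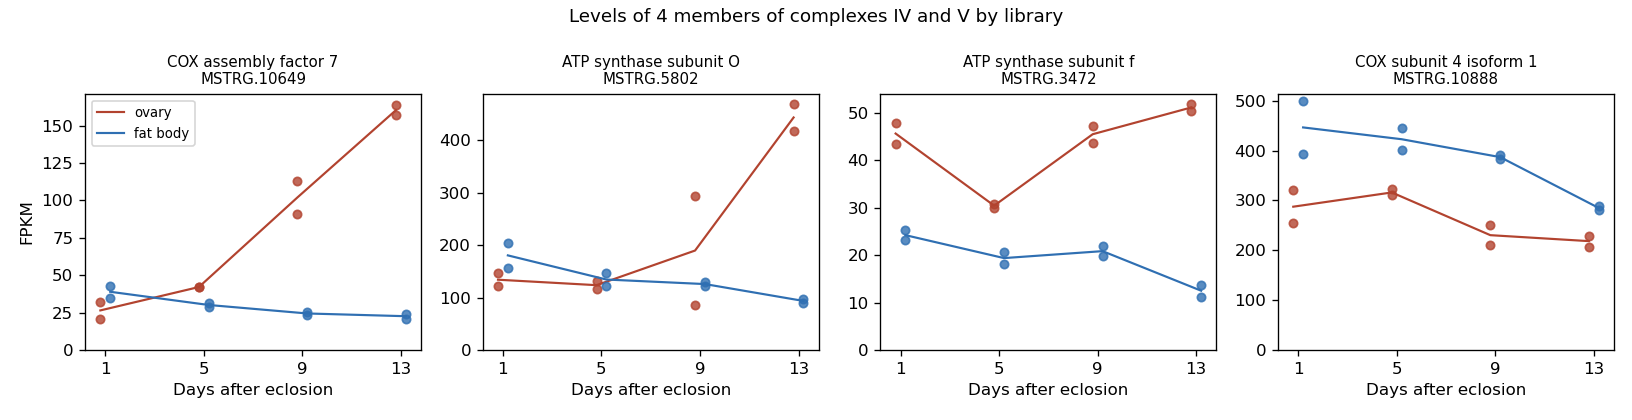
FPKM of 4 members of complexes IV and V by library, against days after eclosion, for ovary (red) and fat body (blue); points are libraries and lines join the group means. Assembly factor 7 of cytochrome c oxidase (COX) reaches 164.0 FPKM in the ovary at day 13 against 24.2 in the fat body, subunit O reaches 469.1 against 98.1, and subunit 4 of COX stays higher in the fat body at each age (a log2 difference of -0.55 over the ages, which turns to 0.08 under quantile normalization).

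The counts of members called between the tissues were also taken at each age. At day 1, 19 of 52 members were lower and 9 higher in the ovary, beside 15.4% and 47.6% of all genes. At day 5 the counts were 13 lower and 6 higher, beside 16.3% and 48.9%, and at day 9 they were 16 lower and 9 higher, beside 23.7% and 44.4%. At day 13 they were 7 lower and 14 higher, beside 21.8% and 46.0%. The medians of the members were -0.44, -0.20, -0.32 and -0.04 at these ages, and those of all genes 0.63, 0.64, 0.43 and 0.51. That more were higher than lower at day 13 depended on the scaling. After median-of-ratios scaling there were 35 lower and 5 higher at day 1, 32 and 1 at day 5, 31 and 4 at day 9, and 30 and 6 at day 13. Under quantile normalization there were 8 lower and 8 higher at day 1, 6 and 4 at day 5, 6 and 12 at day 9, and 10 and 13 at day 13. The count at day 5 rested in part on single libraries, with 11 members called in all without ovary day 5 replicate 2 and 10 without fat body day 5 replicate 2.

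From day 1 to day 5 few members changed. In the ovary 5 fell and 1 rose, beside 16.3% of all genes falling and 7.42% rising. The flavoprotein-like MSTRG.7875 fell by 1.67 ± 0.25 (adjusted p 0.00147), and the tissues differed in this step by -1.78 ± 0.36, lost without ovary day 5 replicate 2 or fat body day 5 replicate 1 (values from -1.93 to -1.62). A subunit 4-like gene of complex IV (5117) measured 3.82 and 1.98 FPKM in the ovary at day 1, 0.187 and 0.485 at day 5, 0.00 and 0.171 at day 9 and 0.00 and 0.532 at day 13, and at most 0.102 in the fat body. It fell by 1.51 ± 0.25 in the ovary (adjusted p 0.00212), and the tissues differed in this step by -1.48 ± 0.35, lost in 6 of the 16 fits that left out 1 library (values from -1.83 to -1.14). Complex I subunit beta 5 (MSTRG.6697) fell in the ovary by 0.59 and COX20 homolog MSTRG.7024 by 0.80, each call lost without ovary day 1 replicate 1 or day 5 replicate 2 (values from -0.72 to -0.47 and from -1.10 to -0.50).

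The same step in the fat body called 1 member lower and 0 higher, beside 10.7% and 3.8% of all genes. At an unadjusted p under 0.05 limma had 5 lower and 0 higher, a count not taken for all genes here or in the later steps. The gene was the cytochrome b small subunit of complex II (MSTRG.6390), by -0.59 (adjusted p 0.0456), and its call was lost in 11 of the 16 fits that left out 1 library, with values from -0.72 to -0.45. The count was 0 with the replicate number as a block, with the same value of -0.59. The muscle markers went the other way in this step, with 13 of 32 higher and 3 lower in the fat body. The tissues differed in this step for 3 members, 1 higher and 2 lower in the ovary's step, beside 7.96% of all genes in either direction.

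From day 5 to day 9, 6 members fell and 2 rose in the ovary, beside 24.1% and 13.9% of all genes. Besides MSTRG.7621, which fell by 1.67 ± 0.24 (adjusted p 0.000349), alpha subcomplex subunit 9 of complex I (MSTRG.1005) fell by 0.47 ± 0.10. Beta subcomplex subunit 8 (MSTRG.1800) fell by 0.70 ± 0.17, lost without ovary day 5 replicate 2 (values from -0.78 to -0.62). Coupling factor 6 of the ATP synthase (MSTRG.10494) fell by 0.73, lost without ovary day 5 replicate 1 or day 9 replicate 2 (values from -0.97 to -0.49). After median-of-ratios scaling the calls of these last 3 were lost, and 4 members in all were called, 1 lower and 3 higher. Muscle markers fell in the same step in the ovary, 20 of 32 lower and 2 higher with a median of -1.99. Hemocyte markers had 5 of 8 lower and 0 higher with a median of -1.30, and gut markers 7 of 23 lower and 3 higher. The part of these cell types in the result was not tested.

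From day 5 to day 9 in the fat body 1 member fell and 0 rose, beside 5.6% and 5.53% of all genes. The iron-sulfur gene MSTRG.7621 fell by 2.33 ± 0.24 (adjusted p 0.000231). At an unadjusted p under 0.05 there were 5 lower and 0 higher. The call of MSTRG.7621 held under every alternative tried. Muscle markers had 1 of 32 higher and 0 lower in this step. The tissues differed in this step for 1 member, assembly factor 7, beside 26.3% of all genes in either direction.

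From day 9 to day 13 the fat body had 4 members lower and 0 higher, beside 5.42% and 1.73% of all genes. Of the 52 members, 42 had a value below 0, with a median of -0.36 beside -0.07 for all genes. At an unadjusted p under 0.05 in limma 19 were lower and 1 higher, a count not taken for all genes. The median was -0.54 in complex II, -0.44 in complex III, -0.42 for the subunits of complex V, -0.28 for those of complex IV and -0.26 for those of complex I, and below 0 for each of these sets under both other scalings. After median-of-ratios scaling the median of all members was -0.27 beside 0.00 for all genes, with 2 called, and under quantile normalization -0.12 beside 0.06, with 1 called. Muscle markers were lower in the same step, 10 of 32 with a median of -0.87, and their part in the result was not tested.

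The members called in that step were MSTRG.7621 (-1.46 ± 0.24, adjusted p 0.0064), subunit f, ATP synthase subunit alpha (MSTRG.8705) and subunit 2 of complex III (MSTRG.9044). When only the groups compared were fitted, 0 were called, with MSTRG.7621 at an adjusted p of 0.14. Subunit alpha measured 656.9 and 611.0 FPKM at day 9 and 440.1 and 413.6 at day 13 in the fat body, and fell by 0.57 (adjusted p 0.049), lost in 12 of the 16 fits that left out 1 library (values from -0.62 to -0.52). Subunit 2 of complex III measured 94.2 and 98.6 FPKM at day 9 and 65.6 and 65.9 at day 13 and fell by 0.55 (adjusted p 0.0373), lost in 6 such fits (values from -0.58 to -0.51) and with the replicate block. The number called was 7 without either ovary day 1 library, 2 without either fat body library of day 5 or day 9 and 1 without fat body day 13 replicate 1.

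In the ovary 0 members were called from day 9 to day 13 in limma, beside 2.59% of all genes lower and 1.63% higher. At an unadjusted p under 0.05 there were 7 higher and 1 lower, and the median was 0.02. The tissues differed in this step for 2 members, both higher in the ovary's step, beside 5.5% of all genes in either direction. They were subunit f, given above, and MSTRG.7621 (1.65 ± 0.34, adjusted p 0.0244), whose call was lost without replicate 2 of either tissue at day 9 or day 13 (values from 1.36 to 1.94). Of the 52 members 45 had a difference above 0, with a median of 0.29 beside 0.11 for all genes. The median was 0.14 beside 0.01 after median-of-ratios scaling and 0.02 beside -0.04 under quantile normalization.

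**Figure D5:**
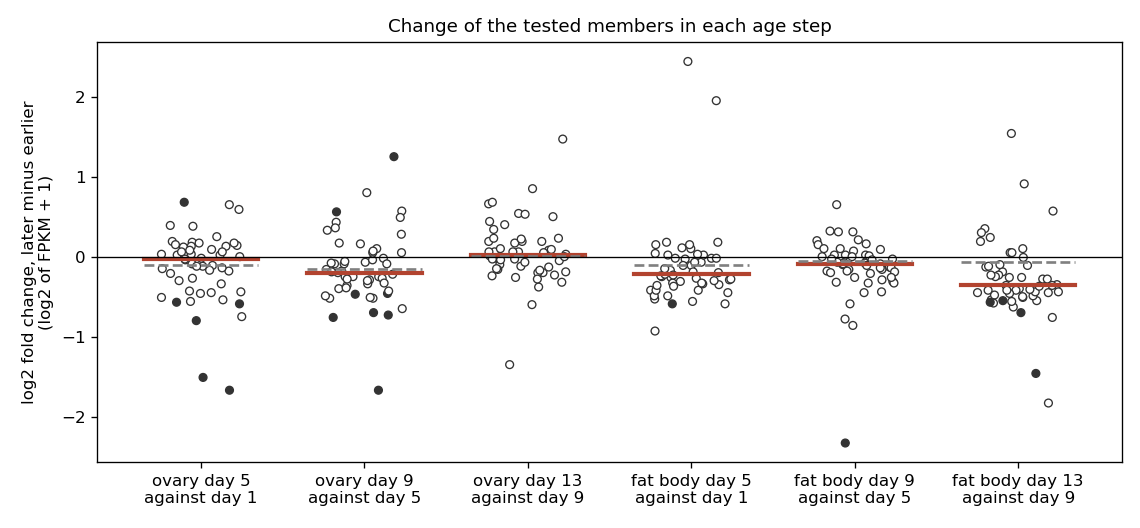
Log2 difference of the 52 tested members in each step between ages, for the ovary (left) and fat body (right); each point is a member (filled where called), red bars are the members' medians and dashed bars the medians of all genes. The median of the members is furthest from that of all genes in the last step of the fat body, -0.36 against -0.07.

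Over the whole course the level at day 13 was below that of day 1 for 45 of 52 members in the fat body and 36 of 52 in the ovary. The share of all genes below day 1 was not counted, and day 13 was not tested against day 1. In the fat body's steps the medians of all genes were -0.11, -0.05 and -0.07. In the ovary's steps they were -0.1, -0.15 and 0.01. The ratio of the mean at day 13 to that at day 1 in the fat body was 0.452 for the lipid-binding protein (MSTRG.10954), 0.568 for subunit alpha (MSTRG.8705), 0.638 for subunit 4 of complex IV (MSTRG.10888) and 0.0571 for MSTRG.7621. In the ovary the same ratios were 1.02, 0.847, 0.760 and 0.134. The lipid-binding protein measured 841.1 and 676.2 FPKM in the fat body at day 1 and 330.1 and 355.3 at day 13, and between 353.2 and 491.2 in all ovary libraries.

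Other genes of energy metabolism and of mitochondria gave a frame for these values. Enzymes of the tricarboxylic acid cycle and pyruvate dehydrogenase, which feed the chain, had 7 of 24 tested genes higher and 9 lower in the ovary over the 4 ages, with a median of -0.13, which also stood below that of all genes. This list was taken by name and holds the cytoplasmic isocitrate dehydrogenase (MSTRG.4898) too, its most abundant gene. Of 7 electron carrier genes 3 were higher and 2 lower. The lower ones were cytochrome c1 of complex III (MSTRG.1978, -0.56 ± 0.06) and a cytochrome c (MSTRG.1860, -1.78 ± 0.28), the carrier between complexes III and IV. COQ9, which serves the making of ubiquinone (MSTRG.3475), was higher by 1.56 ± 0.07.

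Genes for mitochondrial translation and import stood higher in the ovary as deposited, but not under every scaling. Of 48 mitochondrial ribosomal proteins, which translate the subunits encoded in mitochondrial DNA, 38 were higher and 0 lower with a median of 0.85, beside 57.4% and 24.9% of all genes and their median of 0.58. After median-of-ratios scaling 17 were higher and 11 lower with a median of 0.16, and under quantile normalization 19 and 11 with 0.22. Of 10 genes named for mitochondrial protein import 9 were higher and 0 lower with a median of 0.71, which became -0.10 and 0.09 under those scalings, with TOM1-like protein 2, an endosomal protein by its known role, among them by name. For mitochondrial DNA upkeep and transcription 3 of 4 were higher and 0 lower. The vacuolar proton pump, a rotary enzyme akin to the ATP synthase that acidifies compartments, had 7 of 13 higher and 2 lower with a median of 0.35, which became -0.49 after median-of-ratios scaling. The 1 mitochondrial carrier gene found (MSTRG.5754) differed by -0.01.

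Some members' values cannot be read at face value. The levels of 4 loci that carry several products cannot be assigned to the subunit: besides the flavoprotein locus and MSTRG.10865, these are MSTRG.814 (flavoprotein 1 of complex I with F-box/WD repeat protein 5) and MSTRG.9280 (alpha subcomplex subunit 13 with methylmalonate-semialdehyde dehydrogenase and a copper ATPase). MSTRG.814 was called lower in the ovary by -0.41 and MSTRG.9280 was not called. Alpha subcomplex subunit 7 of complex I (MSTRG.10573) is listed at 0 in fat body day 1 replicate 1 and at 46.5 FPKM in replicate 2, and its difference of 0.36 between the tissues was not called. Without replicate 1 it was -0.33 (adjusted p 0.121) and without replicate 2 it was 1.06 (adjusted p 0.000442).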

How the data were processed

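Transcript levels were read from the deposited table of FPKM, which the authors made per gene and library. HISAT2 2.0, StringTie 1.3.0 and Bowtie 0.12.2 are named, without their roles, per the submitters' processing notes. The build named there is a mouse build, so no coordinates are given. Genes are named by the table's product descriptions and identifiers. The members and lists were chosen with earlier results of these data known.

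FPKM were analysed as deposited, as log2 of FPKM plus 1, in limma 3.58.1 (R 4.3.3) with variance trend and robust moderation, 8 group means and all 16 libraries in 1 fit with 8 residual degrees of freedom. P-values were adjusted by Benjamini-Hochberg over the 10213 genes tested in each of 14 comparisons. Tables were handled in Python 3.11.15 with pandas 2.3.3 and numpy 2.4.6 and plots drawn with matplotlib 3.10.9. The fit was also run on simulated data with a common mean per gene for both tissues. Such data lack the tissue differences seen here, and no result above rests on that run.

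The rule for named genes took up to 3 called members with the largest difference in each comparison and direction, the 3 most abundant members of each complex, members sharing a product name and members below the filter. Other genes are named from the lists or after their values were seen. Alternatives were a filter at 5 FPKM or none, 0.1 as pseudocount, median-of-ratios scaling, quantile normalization, fits to only the groups compared, limma without trend and robust moderation, a replicate block, and each library left out. No pairing by replicate number was seen: over 28 pairs of groups, deviations correlated at -0.149 to 0.146, with 1 pair over 0.1. This cannot tell whether ovary and fat body libraries came from the same flies, since same-age pairs were not set apart.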

Additional observations from a re-analysis of the deposited data

Results flagged for a closer look

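Each of these members changed differently in the 2 tissues over the same step between ages, by limma's test of the difference between the steps, given as the ovary's step minus that of the fat body on the log2 scale. In the step from day 1 to day 5 the differences were 1.04 for cytochrome c oxidase assembly factor 7 (MSTRG.10649, adjusted p 0.0465), -1.78 for the flavoprotein-like gene of complex II (MSTRG.7875, adjusted p 0.017) and -1.48 for the subunit 4-like gene of complex IV (5117, adjusted p 0.0304). The latter genes were near 0 FPKM in the fat body throughout. In the step from day 5 to day 9 it was 1.54 for MSTRG.10649 (adjusted p 0.00262), the 1 difference of these that held under every alternative tried. In the step from day 9 to day 13 it was 1.65 for the iron-sulfur gene MSTRG.7621 (adjusted p 0.0244), whose ovary level lay between 0.454 and 1.06 FPKM at those ages, and 0.86 for ATP synthase subunit f (MSTRG.3472, adjusted p 0.0228).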

How the results depend on the processing

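Of 89 called differences of single genes, 41 held under every alternative. Over all 3272 alternative values for 137 differences, 3004 kept their side of the threshold without a called value turning, 226 lost a call, 25 gained one and 17 turned in direction with a call in either fit. Of the 3004, 34 changed sign with no call in either fit. Most of the 17 turned under another scaling. Quantile normalization gave the ovary against fat body values 0.07 for MSTRG.10867, 0.08 for MSTRG.10888, 0.30 for MSTRG.10954, 0.11 for MSTRG.1237, 0.24 for MSTRG.7, -0.27 for MSTRG.7023, -0.24 for MSTRG.7024 and 0.23 for MSTRG.8705, and 0.01 for MSTRG.170 at day 9. Median-of-ratios scaling gave -0.34 for MSTRG.5802, -0.19 for MSTRG.7023, -0.32 for MSTRG.7024, -0.81 for MSTRG.7538, -0.53 for MSTRG.82 and -0.58 for MSTRG.9280, and -0.24 for MSTRG.3472 at day 5. Without ovary day 9 replicate 1, MSTRG.5802 had -0.55 between the tissues at day 9, and 1.22 without replicate 2.

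The number of members called moved by over 1.5 times as follows, and the cause was not tested. Between the tissues, day 1 had 16 under quantile normalization and 14 in the fit to only the groups compared, day 5 had 10 under quantile normalization and 33 after median-of-ratios scaling, and day 13 had 36 after median-of-ratios scaling. In the ovary, day 5 against day 1 had 1 in the fit to only the groups compared, and day 9 against day 5 had 4 after median-of-ratios scaling. In the fat body, day 5 against day 1 had 0 with a pseudocount of 0.1, no filter, either scaling, only the groups compared, no trend and robust moderation, or the replicate block, day 9 against day 5 had 3 under quantile normalization, and day 13 against day 9 had 1 under quantile normalization, 2 after median-of-ratios scaling, 0 in the fit to only the groups compared and 2 without trend and robust moderation. For the difference in the step from day 1 to day 5 there were 0 with a pseudocount of 0.1 and 1 under either scaling or with only the groups compared. From day 5 to day 9 there were 3 under quantile normalization, 3 with only the groups compared, 2 with a filter at 5 FPKM and 2 after median-of-ratios scaling. From day 9 to day 13 there were 1 after median-of-ratios scaling and 0 with only the groups compared.

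With each library left out in turn, the counts ranged from 33 to 39 over the 4 ages, 19 to 33 at day 1, 10 to 21 at day 5, 17 to 26 at day 9 and 14 to 22 at day 13. They ranged from 4 to 7, 7 to 9 and 0 to 2 in the ovary's steps, 0 to 3, 1 to 2 and 1 to 7 in those of the fat body, and 0 to 6, 1 to 3 and 1 to 3 in the differences between them. With the replicate number as a block the counts were 39 over the ages, 28, 19, 26 and 20 at the 4 ages, 6, 8 and 0 in the ovary's steps, 0, 1 and 3 in those of the fat body and 2, 1 and 2 in the differences. The numbers did not pair the libraries, and beside the fat body's first step 3 single calls were lost under the block. Read depth is unknown, so no counting interval can be given for the scarce members.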
